A study of Homo sapiens with 4 samples.

Results

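The immediate early transcription factor genes examined here are the FOS genes (FOS, FOSB, FOSL1 and FOSL2), the JUN genes (JUN, JUNB and JUND) and the EGR genes EGR1, EGR2 and EGR3, 10 genes of the 58735 in the deposited table. They were taken by gene symbol, and the reads of all annotated transcripts of each gene were summed. The libraries came from H1299, an established human non-small-cell lung carcinoma cell line. Cells given methylparaben, an ester of 4-hydroxybenzoic acid used as a preservative, at 0.5 mM for 48 h made up 1 group of 2 libraries, and control cells labelled EtOH (ethanol) the other group of 2, with no dose or time of ethanol given. Poly(A) RNA was sequenced. Whether replicate libraries derive from separate cultures is not stated, and the p-values then reflect only how far these libraries differ, which may be technical.

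FOS and JUN proteins carry a basic region and a leucine zipper and pair to form AP-1, a dimer that binds the TGANTCA element. JUN proteins can pair with each other, whereas FOS proteins need a different partner, such as a JUN protein. EGR proteins bind GC-rich elements through zinc fingers, and their activity is held down by the corepressors NAB1 and NAB2. Transcription of FOS, EGR1 and their relatives is switched on within minutes of growth factor or stress signals through MAP kinases, the serum response factor SRF and its ternary complex partners, and their short-lived mRNAs soon decline again.

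The promoters of the 3 members that passed the test below are shown with their matches, where there are any, to 4 elements known from the control of such genes. Each runs 5′ to 3′ on the gene's strand from 250 bases before the RefSeq start and holds 300 bases (RefSeq, GRCh38.p14). Capitals mark matches on either strand to the CArG box bound by SRF, the AP-1 element TGANTCA, the cyclic AMP response element (CRE) TGACGTCA or the EGR element GCGNGGGCG. EGR1 lies at chr5:138465229-138465528 on the plus strand, FOS at chr14:75278578-75278877 on the plus strand and JUND at chr19:18281573-18281872 on the minus strand.
EGR1: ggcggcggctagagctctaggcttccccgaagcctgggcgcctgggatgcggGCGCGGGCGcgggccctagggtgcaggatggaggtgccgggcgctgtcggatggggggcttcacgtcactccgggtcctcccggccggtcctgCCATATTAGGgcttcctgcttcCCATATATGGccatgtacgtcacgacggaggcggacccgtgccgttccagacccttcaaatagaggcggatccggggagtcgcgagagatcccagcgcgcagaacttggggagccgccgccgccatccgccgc
FOS: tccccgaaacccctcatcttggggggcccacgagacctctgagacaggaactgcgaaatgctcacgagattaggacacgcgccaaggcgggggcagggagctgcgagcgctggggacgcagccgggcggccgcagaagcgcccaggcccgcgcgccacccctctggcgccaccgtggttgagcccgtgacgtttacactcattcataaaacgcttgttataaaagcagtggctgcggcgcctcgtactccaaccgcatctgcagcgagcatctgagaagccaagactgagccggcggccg
JUND: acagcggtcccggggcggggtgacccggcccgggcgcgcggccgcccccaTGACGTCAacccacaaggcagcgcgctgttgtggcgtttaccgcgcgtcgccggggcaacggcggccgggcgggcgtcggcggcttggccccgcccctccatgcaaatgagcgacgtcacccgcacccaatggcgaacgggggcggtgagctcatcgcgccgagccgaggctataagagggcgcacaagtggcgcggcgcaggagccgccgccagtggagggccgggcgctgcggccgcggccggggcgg
EGR1 held 2 CArG boxes, CCATATTAGG from base -105 and CCATATATGG from base -83 relative to the start, and 1 EGR element from base -198. JUND held 1 CRE from base -200, and the FOS window held no exact match to these 4 motifs. Of 35116 RefSeq promoter windows of this length, 1.29% held a CArG box, 7.71% an AP-1 element, 1.85% a CRE and 9.43% an EGR element. Windows were searched for 8 members, 10 windows in all because EGR2 has several starts, and 5 windows held no match. Of the other members, FOSL2 had an AP-1 element, and EGR2 had an EGR element at one start and a CArG box at another. A match describes these letters and is not a measured binding site. Lack of a match, as for FOS, covers only exact letters within these 300 bases. Bases further upstream and inexact forms of the elements were not searched, so it does not show that a gene lacks them.

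How much of each gene could be read differed widely. The deposited counts fall only on bases that lie in the exons of 1 annotated transcript and no other, called readable here: of the 206601 transcripts, 70749 have no such base in GENCODE release 29 and 0 of these had a read. JUN and EGR1, each with 1 annotated transcript, could be read along all of their exonic bases, 3540 and 3138. JUNB had 85.8% of its exonic bases readable, its remainder being shared with HOOK2 on the opposite strand. JUND had 73.2%, EGR3 61.3% and FOS 39.8%. All FOS reads but 1 came from FOS-201, whose 598 readable bases hold 546 bases of the 3′ untranslated region and none of the coding region. FOSL2 had 19.8% of its exonic bases readable, EGR2 19.5% and FOSL1 11.6%. FOSB, with 13 transcripts that share nearly everything, had 25 readable bases, 0.45% of its exons. Its 0 counts in every library therefore say little about FOSB. All 3601 reads of the members lay on transcripts annotated as protein-coding.

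**Figure D1:**
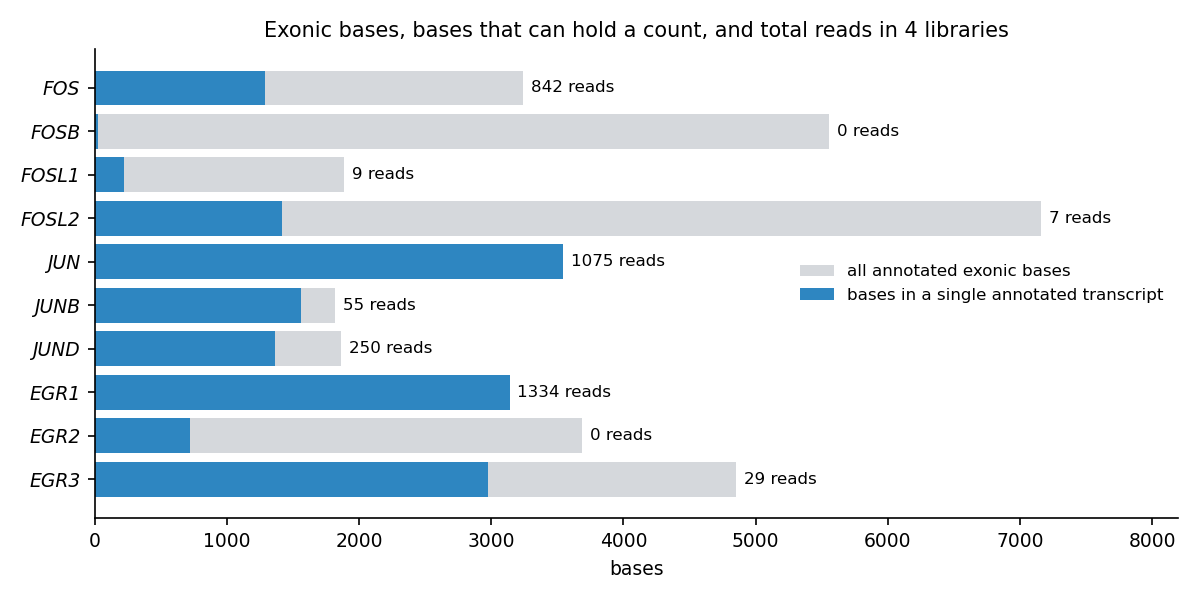
Annotated exonic bases of each member (grey bars) and the readable bases, those in 1 annotated transcript only (blue bars, drawn from 0 over the grey), with the reads counted over all 4 libraries. JUN and EGR1 were readable over their whole length, and FOSB over 25 bases.

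Library totals ran from 2068486 to 3760982 counts. Levels are in CPM, counts relative to the library total after TMM scaling, and 0 counts in a library allow up to 0.816 to 1.57 CPM at 3 counts, a limit that covers counting error only. AXL, VIM, KRT8 and KRT18, markers of this line, were read in all libraries, with AXL at 2201 and 1021 counts in methylparaben libraries and 2946 and 4083 in ethanol libraries. Markers of lung differentiation, blood and hepatocytes, 11 genes, were at 0 throughout, and of 2 endothelial markers CDH5 was at 0 and PECAM1 had 2 and 1 counts with methylparaben and 0 in ethanol libraries.

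Of the 10 members, 5 passed the filter on low counts and were tested, and 3 of them passed the threshold. EGR1 and FOS were lower with methylparaben and JUND was higher, while JUN and JUNB did not pass. Over all 8055 genes tested, 36.9% passed, 18.5% higher and 18.4% lower, so a changed gene was common in this comparison. The CPM of the groups did not overlap for 70.5% of tested genes, 35.5% higher and 35% lower with methylparaben. The test was edgeR's quasi-likelihood test with Benjamini-Hochberg adjustment over all tested genes and a threshold of 0.05, fold changes are methylparaben over ethanol, and ± after a log2 fold change is its SE (n = 2 per group). In these bulk libraries, fewer cells with an mRNA and less of it per cell cannot be told apart.

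EGR1, a zinc finger activator that growth factors induce, had 173 and 134 counts in methylparaben libraries and 471 and 556 in ethanol libraries. This corresponded to 47.1 and 70.1 CPM with methylparaben and 200.3 and 240.6 CPM with ethanol, so the groups were far apart. EGR1 fell 3.8-fold, with a log2 fold change of -1.93 ± 0.23 and an adjusted p of 0.000359 from the edgeR quasi-likelihood test. By p it was at rank 206 of the tested genes, and by fold at rank 513 of the 1485 genes called lower. The call held under all 17 alternatives, with log2 fold changes between -2.19 and -1.66.

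EGR3, a relative of EGR1 that is induced by the same signals, was read at a far lower level and went unseen in treated cells. It had 0 and 0 counts with methylparaben and 10 and 19 counts with ethanol. All of these lay on EGR3-201, whose 2508 readable bases lie mostly in the 3′ untranslated region. At 3 counts over the group, the level with methylparaben was at most 0.537 CPM, against 6.22 CPM in the pooled ethanol libraries. The ratio of these values, 11.6, leaves out the counting error of the ethanol reads and the spread between replicates. The EGR3 counts were too few for the filter used here. With no filter, edgeR's adjusted p for EGR3 over 22450 genes was 5.26e-05. In that edgeR fit, the adjusted p was 0.000518 for FOS, against 0.00675 with the filter, and 2.13e-13 for EGR1, against 0.000359. JUN, JUNB and JUND had larger values without the filter. The EGR3 value is therefore not comparable with the adjusted p-values of the tested members. An antisense gene, AC055854.1, overlaps EGR3 on the opposite strand. Bases shared across strands held no counts, as 3138 transcripts have a base of their own only when the strands are kept apart and 0 of those had a read, but the strand of a read itself is not known. EGR2, which acts in Schwann cell development, had 0 counts in all libraries on 721 readable bases that lie outside its coding region. Of these bases 541 belong to EGR2-204, annotated as a processed transcript, and the protein-coding EGR2-201 and EGR2-202 have 0. The 0 counts therefore say little about EGR2.

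FOS, the founding AP-1 partner of JUN, had 227 and 84 counts with methylparaben and 245 and 286 with ethanol. Its level was 61.8 and 44.0 CPM in methylparaben libraries and 104.2 and 123.8 CPM in ethanol libraries, with no overlap between the groups. FOS fell 2.14-fold, with a log2 fold change of -1.10 ± 0.24 and an adjusted p of 0.00675 (edgeR quasi-likelihood test). FOS was the only tested member whose level was lower in the second methylparaben library than in the first. Leaving out either of these moved its log2 fold change between -1.38 and -0.85, and the call held in each of the 17 alternatives at the gene level. As a transcript, FOS-201 had a log2 fold change of -1.12 ± 0.24.

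The other FOS genes had few or no reads on their readable bases. FOSL1, which encodes FRA1, an AP-1 subunit linked to invasion in carcinoma cells, had 0 and 0 counts with methylparaben and 5 and 4 with ethanol. These 9 reads lay on the 171 readable bases of FOSL1-202, all in its 3′ untranslated region. FOSL1-201, FOSL1-203 and FOSL1-204 have 0 readable bases, so the counts describe that stretch and not the whole gene. FOSL1 was at most 0.537 CPM with methylparaben, against 1.93 CPM in the pooled ethanol libraries. The ratio of these CPM values, 3.59, leaves out the counting error of the ethanol reads and the spread between replicates. It is therefore not a lower bound on the fall. With no filter, the adjusted p of FOSL1 in edgeR was 0.127. FOSL2, which encodes FRA2, had 1 and 5 counts with methylparaben and 0 and 1 with ethanol. Its ratio of methylparaben over ethanol was 5.01, with an exact binomial 95% interval of 0.608 to 230.3 that covers counting error only, so no difference was detectable at this depth.

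JUN, the central AP-1 subunit, had 302 and 238 counts with methylparaben and 230 and 305 with ethanol. At 82.2 and 124.6 CPM with methylparaben and 97.8 and 132.0 CPM with ethanol, the groups overlapped. Its log2 fold change was -0.16 ± 0.25 with an adjusted p of 0.649 (edgeR quasi-likelihood test), and it turned positive, to 0.11, without methylparaben replicate 1 and to 0.09 without ethanol replicate 2.

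JUND, a JUN relative that is present in resting cells and depends less on stimulation, had 97 and 76 counts with methylparaben and 36 and 41 with ethanol. Its level was 26.4 and 39.8 CPM in methylparaben libraries and 15.3 and 17.7 CPM in ethanol libraries, without overlap. JUND rose 1.98-fold, with a log2 fold change of 0.98 ± 0.34 and an adjusted p of 0.0443 (edgeR quasi-likelihood test). This call was close to the threshold: 7 of 13 other settings and 3 of 4 fits that left out a library ended it, DESeq2 with an adjusted p of 0.104 and the fit with a replicate block with 0.0582. The log2 fold change was positive in every one of these alternatives, from 0.71 to 1.26.

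JUNB, a JUN relative known to counter JUN at some promoters, had 9 and 15 counts with methylparaben and 15 and 16 with ethanol. The methylparaben libraries, at 2.45 and 7.85 CPM, spanned the ethanol libraries, at 6.38 and 6.92 CPM. Its log2 fold change of -0.48 ± 0.64 did not pass (adjusted p = 0.589, edgeR quasi-likelihood test), and without methylparaben replicate 1 it was 0.23.

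**Figure D2:**
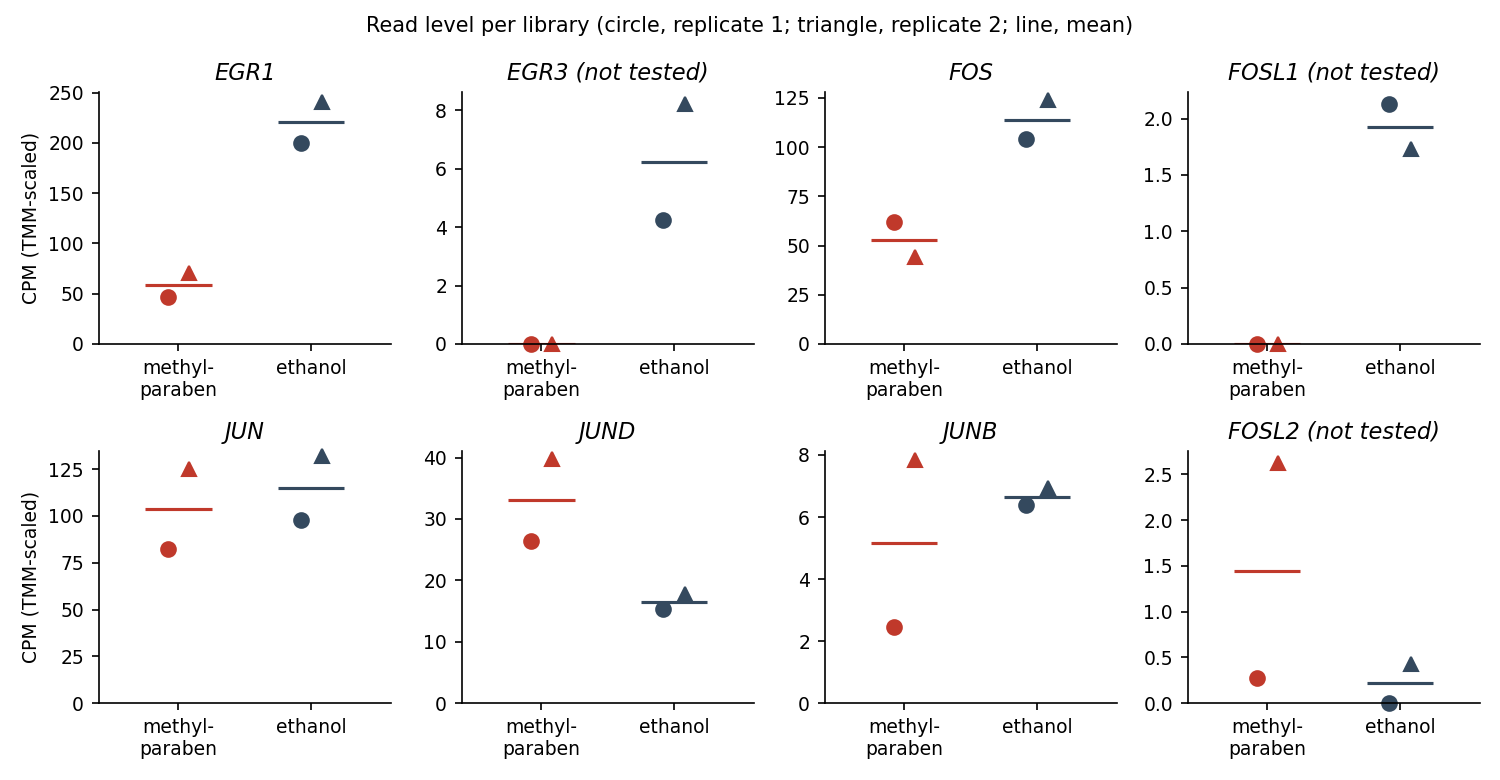
CPM of 8 members in each library, on axes that start at 0, with methylparaben (red) left of ethanol (dark) and a line at the group mean. EGR1 and FOS with methylparaben lay below both ethanol libraries, JUND above both, EGR3 and FOSL1 at 0, and JUN and JUNB overlapped.

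EGR1, JUN, JUNB and JUND were all higher in the second methylparaben library than in the first, by CPM, so ratios of read counts within a library, which do not depend on how libraries are scaled, were also compared. EGR1 gave 0.573 and 0.563 reads per JUN read with methylparaben and 2.05 and 1.82 with ethanol. JUND gave 0.321 and 0.319 reads per JUN read with methylparaben and 0.157 and 0.134 with ethanol. In these ratios the 2 methylparaben libraries lay within 0.01 of each other, closer than in CPM. FOS gave 0.752 and 0.353 reads per JUN read with methylparaben and 1.07 and 0.938 with ethanol, below the ethanol libraries but with a wide spread. JUNB per JUN overlapped, at 0.0298 and 0.063 with methylparaben and 0.0652 and 0.0525 with ethanol. An exact two-sided permutation test of 2 libraries against 2 cannot give less than 0.333, and the EGR1, FOS and JUND ratios each gave that value. Such ratios show that the genes changed unequally, not which of them moved.

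**Figure D3:**
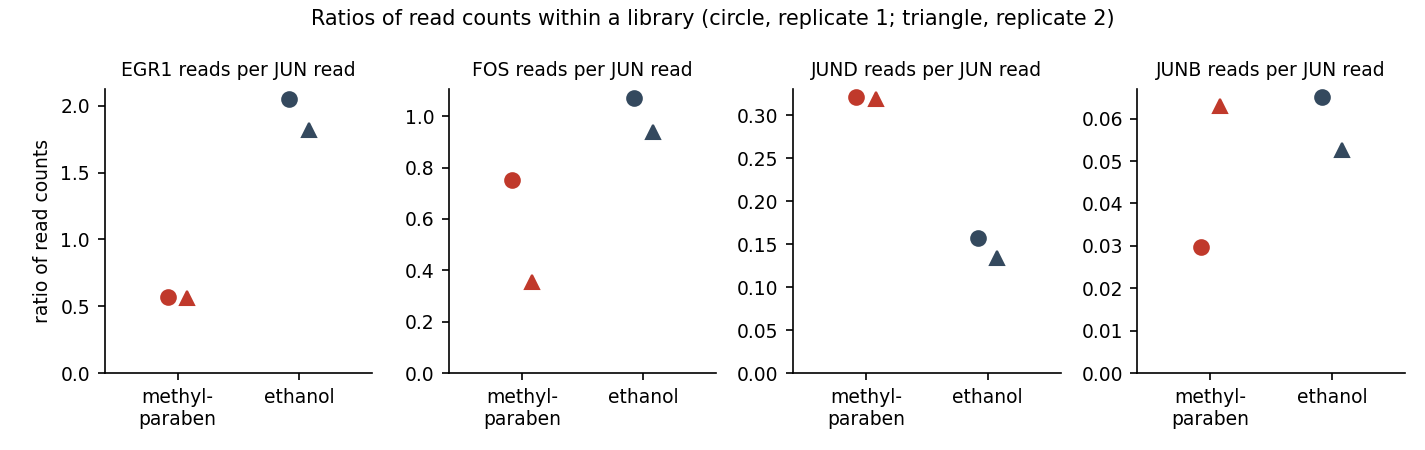
Read counts of EGR1, FOS, JUND and JUNB divided by those of JUN in the same library, methylparaben left of ethanol, on axes from 0. The EGR1 and JUND ratios were nearly equal between the methylparaben libraries (0.573 and 0.563 for EGR1, 0.321 and 0.319 for JUND) and apart from the ethanol libraries.

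Levels of different genes were set beside each other as unscaled CPM per kilobase of readable bases of the transcript that held the reads. In the ethanol libraries FOS-201 was at 172 and 219 CPM per kilobase and EGR1-201 at 63.4 and 81.2. JUN-201 followed at 27.4 and 39.5, JUND-201 at 11.2 and 13.8 and FOSL1-202 at 12.3 and 10.7, the last pair overlapping. JUNB-201 was at 4.06 and 4.7 and EGR3-201 at 1.68 and 3.47. In the methylparaben libraries FOS-201, at 101 and 67.9 CPM per kilobase, stayed first. JUN-201 was at 22.7 and 32.5, JUND-201 at 18.9 and 27.0 and EGR1-201 at 14.7 and 20.6, and these 3 ranges overlapped from one to the next. Among JUN family levels per kilobase, JUND made up 43.8% and 42.1% with methylparaben and 26.3% and 23.8% with ethanol. JUN made up 52.6% and 50.7% with methylparaben, against 64.2% and 68.1% with ethanol. A read that also touches a shared base may not have been counted, so short readable stretches such as those of FOS and FOSL1 give a rougher level. FOS-201 was read almost only in its 3′ untranslated region, but JUN-201 and EGR1-201 over their whole length. How coverage varies along a transcript was not tested, so the place of FOS above these genes is uncertain.

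The AP-1 partners list held 18 genes for proteins that can pair with FOS or JUN or bind the same elements. Of its 8 tested members 3 rose, 3 fell and 2 did not pass, with a median log2 fold change of -0.57, against 0.03 over all genes tested. Beside this list and each list below stands the share over all genes tested, 18.5% higher and 18.4% lower. ATF3, a stress-induced factor that pairs with JUN, had 37.8 and 59.7 CPM with methylparaben and 4.25 and 5.19 CPM with ethanol. ATF3 rose, with a log2 fold change of 3.34 ± 0.39 and an adjusted p of 0.00032 (edgeR quasi-likelihood test). Retained-intron transcripts held 74.2% of its reads and protein-coding transcripts none. MAFG, a small MAF protein that partners NRF2 and some AP-1 factors, rose by 1.46 ± 0.31 and ATF7, a CRE-binding partner of JUN, by 1.10 ± 0.23 on the log2 scale. The ATF7 call was lost on FPKM values and without ethanol replicate 1. ATF1, a CREB relative, was at -1.09 ± 0.21 and fell. The 2 other genes that fell, BATF3 and CREM, were named after their values were seen. BATF3 had 0 and 1.57 CPM with methylparaben and 5.95 and 10.4 CPM with ethanol. CREM had 0.544 and 1.57 CPM with methylparaben and 6.80 and 4.76 CPM with ethanol. Transcripts annotated as processed transcripts held 100% of the BATF3 reads and 34.4% of the CREM reads.

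In the list of the EGR relatives and corepressors, 2 of 4 tested genes fell and 0 rose, with a median log2 fold change of -0.43; of all genes tested, 18.5% rose and 18.4% fell. NAB1, the EGR corepressor, had 128.7 and 115.7 CPM with methylparaben and 187.5 and 244.1 CPM with ethanol, a log2 fold change of -0.82 ± 0.20. That call was lost without ethanol replicate 2 (adjusted p = 0.125, edgeR) and on FPKM values. SP3, a GC-box factor, had 25.6 and 17.3 CPM with methylparaben and 39.6 and 47.6 CPM with ethanol and an adjusted p of 0.0287 (edgeR), a call that DESeq2, limma on log2 FPKM plus 0.1 and 3 of the 4 fits that left out a library did not keep. NAB2 was not among the tested genes.

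Among the upstream factors, SRF, the factor that binds CArG boxes, did not pass (log2 fold change 0.18 ± 0.46, adjusted p = 0.79, edgeR). ELK3, a ternary complex factor that can repress, had 267.2 and 196.3 CPM with methylparaben and 619.2 and 653.6 CPM with ethanol, and fell by 1.45 ± 0.19 on the log2 scale. ELK4, another ternary complex factor, had 682.9 and 582.5 CPM with methylparaben and 294.3 and 335.9 CPM with ethanol, and rose by 1.01 ± 0.17. Of 7 tested genes in that list 1 rose and 1 fell. Over all genes tested, 18.5% rose and 18.4% fell. In the list of the MAP kinase pathway 3 of 14 tested genes fell, near the share over all genes. In that list 0 rose and 11 did not pass, with a median of -0.41. Among those that fell were NRAS, which encodes a RAS GTPase that starts the cascade, at -0.92 ± 0.17, and MAP3K5, a stress-activated kinase, at -0.72 ± 0.23. The MAP3K5 call was lost under 5 of 13 other settings and without 3 of the 4 libraries.

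The list of other immediate early genes was divided, with 6 of 19 tested genes higher, 5 lower and 8 not called and a median of -0.09. CTGF, a secreted matricellular protein gene, had 145.0 and 139.2 CPM with methylparaben and 1365.1 and 1549.5 CPM with ethanol. CYR61, a related gene, had 254.1 and 328.1 CPM with methylparaben and 904.1 and 933.6 CPM with ethanol. RHOB, a small GTPase gene, had 220.7 and 188.4 CPM with methylparaben and 509.1 and 573.9 CPM with ethanol. These 3 genes fell, and the ATF3 gene given above rose. In the list of AP-1 targets 3 of 11 tested genes rose, 4 fell and 4 did not pass, with a median of -0.02. CCND1 (cyclin D1) fell, at -2.50 ± 0.17, with 122.7 and 119.8 CPM with methylparaben and 703.0 and 673.0 CPM with ethanol, whereas HMOX1 (heme oxygenase) rose by 3.66 ± 0.51, with 71.8 and 236.0 CPM in the methylparaben group, against 11.9 and 12.1 CPM in the ethanol group. The HMOX1 value was 4.28 without methylparaben replicate 1 and 2.61 without methylparaben replicate 2. Of 3 tested EGR targets 1 rose, 1 fell and 1 did not pass. THBS1, a matrix glycoprotein gene, fell by 2.11 ± 0.32 and TGFB1, a growth factor gene, rose by 1.52 ± 0.42 on the log2 scale. The THBS1 call was lost on FPKM values (-1.14 and -1.37 with 1 and 0.1 added). The TGFB1 call was lost there, with limma voom, without methylparaben replicate 2 (0.89) and without ethanol replicate 1 (1.41).

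In the list of genes for the degradation and modification of AP-1 proteins 4 of 7 tested rose and 2 fell, with a median of 1.12. FBXW7, the ubiquitin ligase subunit that targets JUN, had 59.3 and 44.0 CPM with methylparaben and 11.1 and 12.1 CPM with ethanol, and rose by 2.16 ± 0.31 on the log2 scale. Retained-intron transcripts held 91.9% of its reads. CSNK2A1 (a catalytic subunit of casein kinase 2), DDB1 (a subunit of CUL4 ubiquitin ligases) and COPS5, which binds JUN, rose by 2.05 ± 0.26, 2.27 ± 0.48 and 1.12 ± 0.24. Retained-intron transcripts held 68.9%, 38% and 98.3% of their reads in that order. The DDB1 value was 2.89 without ethanol replicate 1 and 1.85 without ethanol replicate 2. It was 2.89 without retained-intron transcripts and 3.11 with protein-coding transcripts only. The COPS5 call was lost on FPKM values and without ethanol replicate 1. Over all lists, each gene counted once, 37 of 71 tested genes passed, 16 higher and 21 lower, against 36.9% of all genes tested. The lists were chosen with earlier results of these data known, so this count is a description.

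**Figure D4:**
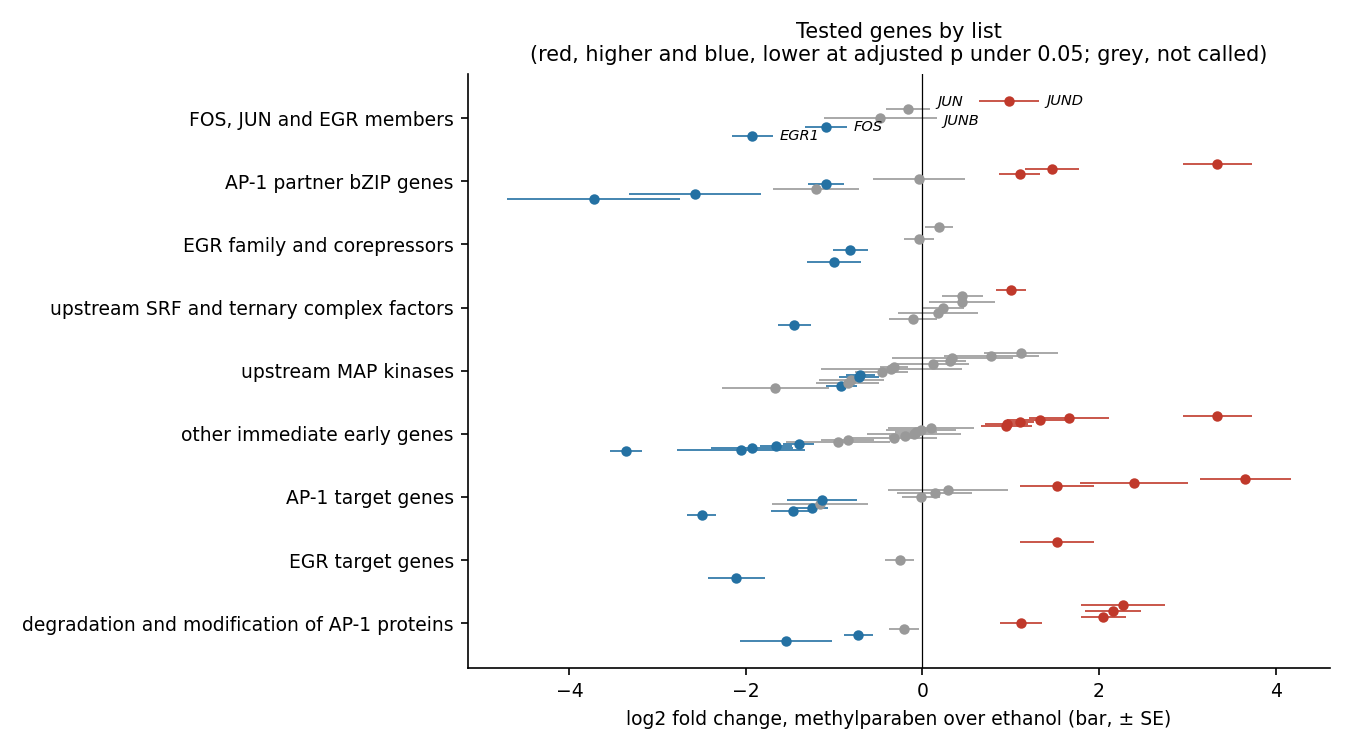
Log2 fold changes, methylparaben over ethanol, of the tested members and of the tested genes of each list, with the SE as a bar. Red points passed as higher, blue points as lower, and grey points did not pass. Most lists held both higher and lower genes.

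Genes with a level profile most like EGR1 were sought among 7317 tested genes at a mean of 5 CPM or more, by the distance between log2 CPM centred on each gene's mean over 4 libraries. The 5 nearest were RBL1, a pocket protein gene of the cell cycle, at a distance of 0.114, then AL390728.6, PCBD2, UBE2E2 and AC007128.1, the last at 0.157. RBL1 had 16.9 and 24.1 CPM with methylparaben and 65.9 and 81.4 CPM with ethanol. The 4 libraries describe a profile only coarsely, and AC007128.1 is annotated as antisense.

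At the level of transcripts, the 5 transcripts tested were those of the 5 tested genes, and 3 passed, EGR1-201 and FOS-201 lower and JUND-201 higher, while 39.4% of all 9167 tested transcripts passed, 20.3% higher and 19.1% lower. The authors' deposited table, in which 11.1% of the transcripts with a read have an adjusted p under 0.05, lists EGR1-201 at 0, EGR3-201 at 5e-08, FOS-201 at 0.000148 and FOSL1-202 at 0.00597. In the authors' deposited table JUND-201 is at 0.256, and JUN-201, JUNB-201 and FOSL2-201 are at 0.837. The authors' table thus differs from the edgeR test at JUND, which passed only in the edgeR test, and at FOSL1 and EGR3, which were below its filter. With the filter lifted, EGR3 passed in edgeR (adjusted p = 5.26e-05) and FOSL1 did not (0.127).

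**Figure D5:**
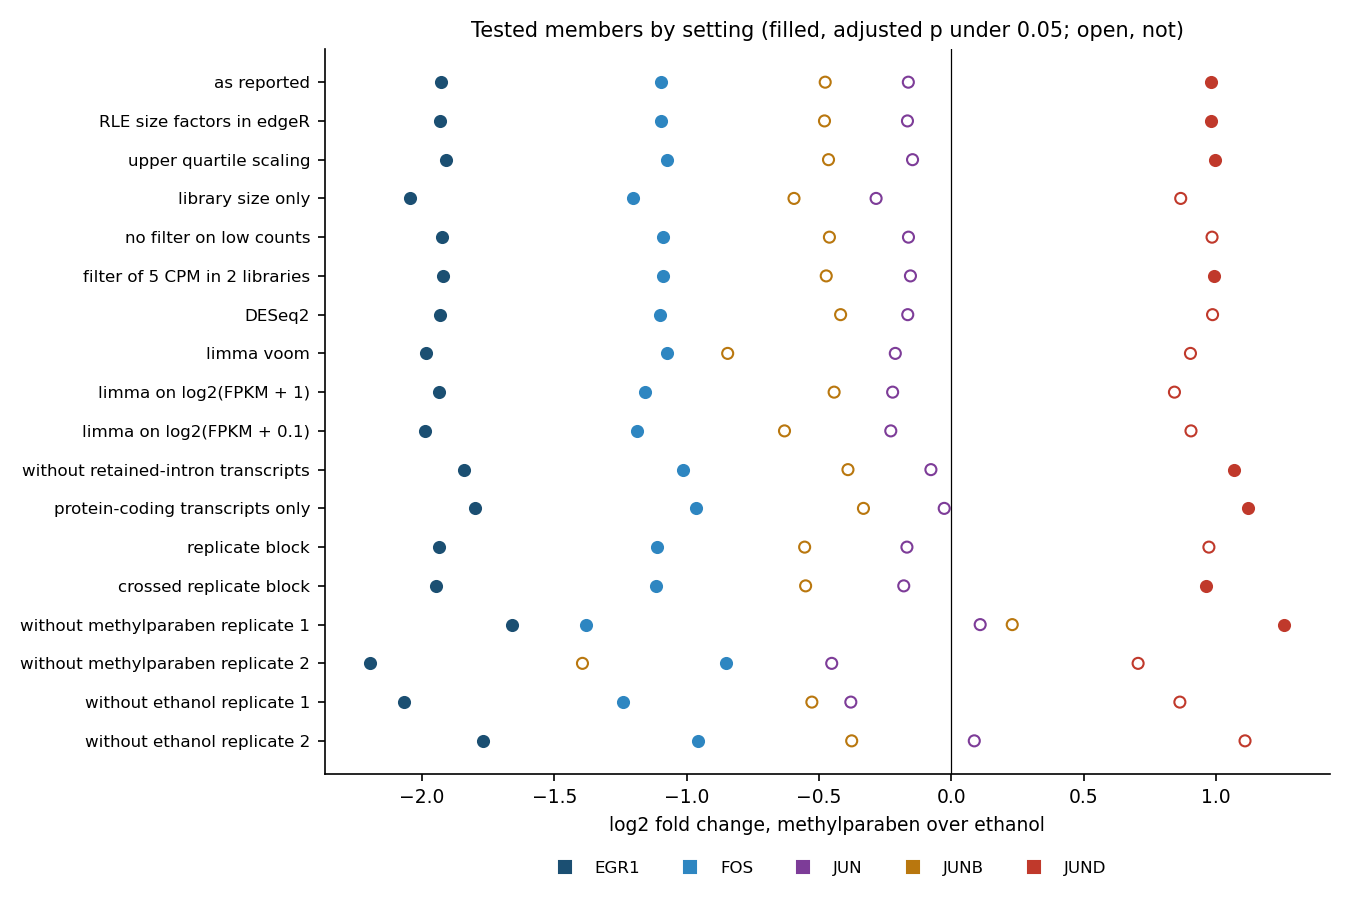
Log2 fold change of the 5 tested members under each setting, one colour per gene, filled where the adjusted p was under 0.05. EGR1 and FOS stayed below 0 and filled at every setting, JUND stayed above 0 and was open at 10 of the 17 alternatives, and JUN and JUNB crossed 0 only where a library was left out.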

How the data were processed

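RNA-seq of 4 libraries was analysed, 2 of methylparaben-treated and 2 of ethanol control H1299 cells. The authors deposited raw counts per transcript, without normalisation. FPKM per transcript, log2 of FPKM plus 1 and p-values of the authors' own comparison, whose test is not named, were deposited beside them, per the file headers. The submitters' processing notes list the build GRCh38 and DESeq2, limma and edgeR. For the aligner and the counter, names are not given in these sources. All 206601 transcripts were found at the same coordinates in GENCODE release 29, which gave exons and single-transcript bases.

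Counts were summed per gene, filtered with filterByExpr (minimum count 10, minimum total 15), TMM-scaled and tested with edgeR 4.0.16 in R 4.3.3 (quasi-likelihood F-test, group only, two-sided), tested beforehand on simulated data. The SE is the log2 fold change over the square root of F. Bounds take 3 counts over a group and cover counting error in that group only. Alternatives were RLE, upper quartile or no scaling, no filter or 5 CPM in 2 libraries, DESeq2 1.42.0, limma 3.58.1 (voom, and log2 of FPKM plus 1 or 0.1), transcript classes left out, a replicate block, and each library left out. With 1 library left in a group, it is assumed to vary like the other group. The members, the 8 lists and the tests were chosen with earlier results of these data known. Named genes were the members, up to 4 called genes per list by smallest p, and the 5 genes nearest EGR1. Some of these genes are not reported here. Cell type markers were checked by their counts. Counts differed between replicates by more than sampling noise (chi-square per degree of freedom 13.5 for methylparaben and 5.34 for ethanol).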

Additional observations from a re-analysis of the deposited data

How the results depend on the processing

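EGR1 and FOS kept their direction and their call under all 13 other settings and all 4 fits that left out a library. JUND kept its direction but lost its call with log2 fold changes of 0.87 (library size only), 0.99 (no filter), 0.99 (DESeq2), 0.90 (limma voom), 0.84 and 0.91 (log2 FPKM with 1 and 0.1 added) and 0.97 (replicate block). Leaving out 1 library gave 0.71 to 1.26 for JUND, -0.45 to 0.11 for JUN and -1.39 to 0.23 for JUNB, the last 2 changing sign (JUN to 0.11 and 0.09, JUNB to 0.23). The number of genes called, 2976, became 1899 on log2 FPKM plus 0.1 and 1867 with protein-coding transcripts only, where 4487 genes were tested, and 1677 to 3095 with a library left out, the lowest without ethanol replicate 1. List members called, 37, became 23 on log2 FPKM plus 0.1 and 22 to 33 with a library left out, the lowest again without ethanol replicate 1. Member transcripts called, 3, became 1 to 4, with 1 without ethanol replicate 2; EGR3-201 was tested with a library left out only through its ethanol counts. Library size alone moved the median log2 fold change of all genes by -0.105. Why these values moved was not tested. In some of these settings fewer genes or fewer libraries entered.

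Replicate numbers are shared by the groups, but same-numbered libraries did not deviate together (correlation across genes -0.15), so the numbers are not taken as pairs. The replicate block called 2488 genes, 2 members and 32 list members. A crossed block, chosen after seeing the data, called 3292 genes, 3 members and 38 list members. Of 24 named list genes 16 kept their call under every alternative that tested them, 8 lost it under 1 or more, and 0 reversed. FOSL1, FOSL2, EGR3 and JUNB had few reads, and FOSB and EGR2 had 0 on their readable bases.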
